A study of Mus musculus with 40 samples.

Results

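The genes described here were 10 regulators with known roles in the identity or function of brown fat: Prdm16, Ebf1, Ebf2, Ebf3, Nfia, Zfp516, Tle3, Hlx, Irf4 and Zbtb16. They were chosen by name and were 10 of 21938 protein-coding genes of the annotation. For each gene, all deposited peaks over the gene body and 20 kb on each side were taken. Histone marks had been mapped by ChIP-seq, the sequencing of DNA that an antibody to the mark pulls down, in brown adipose tissue of 20-week-old wild type C57BL/6N mice, with no transgene or deleted allele in any group. Of the 8 mice, mice 1 and 2 were warm on normal chow diet (NCD), mice 4 and 5 were cold on NCD, mice 7 and 8 were warm on high-fat diet (HFD), and mice 10 and 11 were cold on HFD. HFD had been given for 12 weeks from 8 weeks of age, and cold was 4 °C for 24 h. Each mouse had a peak list for H3K4me3, H3K27ac, H3K4me1 and H3K27me3, so 32 lists entered. Temperature and diet were each compared between 4 and 4 mice, and p-values rest on the spread between these mice.

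Brown adipocytes burn fuel to make heat and share part of their developmental origin with skeletal muscle. PRDM16 is a zinc finger coregulator that favours the brown over the muscle fate, EBF2 and NFIA are DNA-binding factors that open brown fat chromatin together with PPARG, and ZFP516 activates Ucp1. HLX is a homeobox factor of the thermogenic programme, IRF4 partners with PGC-1α in thermogenesis, TLE3 is a corepressor that favours white over brown gene expression, and ZBTB16 (PLZF) is a zinc finger repressor active in many lineages. Among the marks, H3K4me3 lies at start sites of active or poised genes, H3K27ac at active start sites and enhancers, H3K4me1 at enhancers and H3K27me3 over Polycomb-silenced genes.

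For each eligible gene, a sequence from within its intronic H3K27ac region found in the most mice is shown. A region joins overlapping peaks of the 8 mice. Members with an entry in the RefSeq promoter table and an intronic region were eligible. This left out Zbtb16 and Ebf2, whose most frequent regions were found in 8 and 7 mice, and Zfp516. Each sequence is the median peak summit with 100 bases on either side, from the forward strand of GRCm38.p6. Regions lay at chr4:98104232-98104432 in Nfia, chr7:137222495-137222695 in Ebf3, chr4:154583699-154583899 in Prdm16, chr11:44657867-44658067 in Ebf1 and chr9:61376361-61376561 in Tle3. Capitals mark the NFI half-site TTGGC on either strand.
Nfia: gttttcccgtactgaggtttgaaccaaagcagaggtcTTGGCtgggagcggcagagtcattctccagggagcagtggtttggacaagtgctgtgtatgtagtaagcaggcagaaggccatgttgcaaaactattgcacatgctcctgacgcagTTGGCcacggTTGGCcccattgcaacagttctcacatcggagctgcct
Ebf3: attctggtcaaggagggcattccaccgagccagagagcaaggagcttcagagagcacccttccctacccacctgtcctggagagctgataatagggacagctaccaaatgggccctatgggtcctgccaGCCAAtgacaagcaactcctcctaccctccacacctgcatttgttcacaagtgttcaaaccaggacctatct
Prdm16: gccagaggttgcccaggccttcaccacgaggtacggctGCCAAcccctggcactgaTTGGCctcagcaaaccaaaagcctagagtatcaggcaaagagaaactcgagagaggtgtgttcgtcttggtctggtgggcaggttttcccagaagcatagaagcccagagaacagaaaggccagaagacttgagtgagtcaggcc
Ebf1: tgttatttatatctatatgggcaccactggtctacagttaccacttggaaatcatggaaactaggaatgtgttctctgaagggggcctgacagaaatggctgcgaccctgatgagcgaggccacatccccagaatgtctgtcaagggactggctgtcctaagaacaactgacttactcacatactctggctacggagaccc
Tle3: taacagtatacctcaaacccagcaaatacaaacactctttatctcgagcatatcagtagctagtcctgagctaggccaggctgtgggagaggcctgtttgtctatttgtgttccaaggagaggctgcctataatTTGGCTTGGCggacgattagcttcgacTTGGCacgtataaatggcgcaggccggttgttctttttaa
The regions that hold the first 4 of these windows had a peak in all 8 mice, and the Tle3 region in 4 mice. The peak of a single mouse in a region need not overlap the window shown. The half-site occurred 3 times in the Nfia window, 2 times in Prdm16, 1 time in Ebf3, 3 times in Tle3 and 0 times in Ebf1. None of the 5 windows held the EBF motif CCCNNGGG, the NFI palindrome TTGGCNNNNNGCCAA or the IRF motif GAAANNGAAA, each searched on both strands. The half-site, which is contained in the palindrome, was added to the search after these 3 motifs had been counted. Over the 69 intronic H3K27ac regions of the 10 genes with a peak in 4 or more mice, 26 windows (37.7%) held the half-site, against 33.4% of 5729 such windows in all protein-coding genes. The EBF motif was in 3 of the 69 (4.35%) against 6.16%, the IRF motif in 1 (1.45%) against 2.91%, and the palindrome in 0 against 0.0175%. These letter matches describe the windows and do not show binding.

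Promoter sequences are shown for 3 genes that span the range of start-site breadth and CpG content given further on. Each is the 200 bases before the RefSeq start on the gene's own strand, from GRCm38.p6, with CpG dinucleotides in capitals. They lie at chr7:137314446-137314645 (minus strand) for Ebf3, chr4:154636874-154637073 (minus strand) for Prdm16 and chr13:30749033-30749232 (plus strand) for Irf4.
Ebf3: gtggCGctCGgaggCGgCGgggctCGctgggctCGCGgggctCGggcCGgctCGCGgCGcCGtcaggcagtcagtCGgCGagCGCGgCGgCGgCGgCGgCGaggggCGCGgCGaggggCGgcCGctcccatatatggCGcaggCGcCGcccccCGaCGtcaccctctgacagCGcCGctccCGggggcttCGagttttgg
Prdm16: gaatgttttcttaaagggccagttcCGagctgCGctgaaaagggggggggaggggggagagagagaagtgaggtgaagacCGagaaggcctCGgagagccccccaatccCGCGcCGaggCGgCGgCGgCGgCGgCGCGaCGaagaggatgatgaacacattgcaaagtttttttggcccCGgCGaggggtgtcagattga
Irf4: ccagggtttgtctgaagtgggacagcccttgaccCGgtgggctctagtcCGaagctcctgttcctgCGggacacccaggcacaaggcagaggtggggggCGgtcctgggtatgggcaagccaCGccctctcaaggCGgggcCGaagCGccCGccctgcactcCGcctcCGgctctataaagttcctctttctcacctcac
These 200 bases held 36 CpG in Ebf3, 17 in Prdm16 and 11 in Irf4. Within 1000 bp of the first annotated start site, CpG density was 11.4 per 100 bp in Prdm16, 10.6 in Ebf3 and 9.10 in Nfia, at or above the 98.0 percentile of all genes. Irf4, at 2.75 per 100 bp, was below the median of all genes of 3.15, and Ebf1, at 3.40, was just above it. The other 5 genes had 4.45 (Ebf2) to 7.35 (Tle3) per 100 bp. Ebf2, Zbtb16 and Zfp516 were not in the promoter table.

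The lists differed in length between mice. H3K4me3 lists held 13517 to 24104 peaks and H3K27ac lists 3224 to 40604, the shortest of both being mouse 7, a warm HFD mouse. The longest H3K4me1 list held 27568 peaks, but that of mouse 7 held 12 and that of mouse 10, a cold HFD mouse, 18. The H3K4me1 list of mouse 1, a warm NCD mouse, held 592. H3K27me3 lists held 20 to 6428, with a median of 149, so a missing H3K27me3 peak carries little weight in most mice. A missing peak in mouse 7 or 10, or a missing H3K4me1 peak in mouse 1, therefore carries less weight than one in a longer list. Results are given with and without mouse 7 where it changed them. Read depth is not held by the lists. The part of list length in any difference was not tested.

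The tissue label was checked by start-site peaks of marker genes. All 11 brown adipocyte markers, among them Ucp1, Cidea and Adipoq, had an H3K4me3 start-site peak in every mouse, and 9 to 11 had H3K27ac. Endothelial markers had H3K4me3 at 3 to 5 of 5, macrophage markers at 1 to 2 of 5 and skeletal muscle markers at 1 to 3 of 8, with Ckm, Myh1, Myh2, Myh4 and Tnnt3 at 0 in all mice. The 5 B cell and 5 T cell markers had neither mark at a start site in any mouse. In whole tissue, fewer cells of a type and less modified chromatin per cell cannot be told apart.

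Every one of the 10 genes carried H3K4me3 at its start sites, and 9 did so in all 8 mice. A start-site peak was one overlapping 1000 bp on either side of an annotated start site. The exception was Prdm16, with a peak in 7 mice and none in mouse 7. Of all protein-coding genes, 43.3% had such a peak in all 8 mice. H3K27ac was called at the start sites of all 10 genes, each in 5 to 7 mice, and in no case in mouse 7. Hlx, Nfia, Ebf1, Ebf2 and Zbtb16 had H3K27ac in 7 mice, Ebf3, Tle3 and Irf4 in 6, and Prdm16 and Zfp516 in 5. Of all protein-coding genes, 49.6% had H3K27ac at a start site in at least 1 mouse and 17.1% in 7 or more. H3K4me1 overlapped a start-site window only in Ebf3, in mice 2, 4, 5 and 8, and in Ebf1, in mouse 5, beside 22.4% of all protein-coding genes with such a peak in at least 1 mouse. H3K27me3 was called at no start site of the 10 genes in any mouse, beside 1511 protein-coding genes (6.89%) with such a peak in at least 1 mouse.

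**Figure D1:**
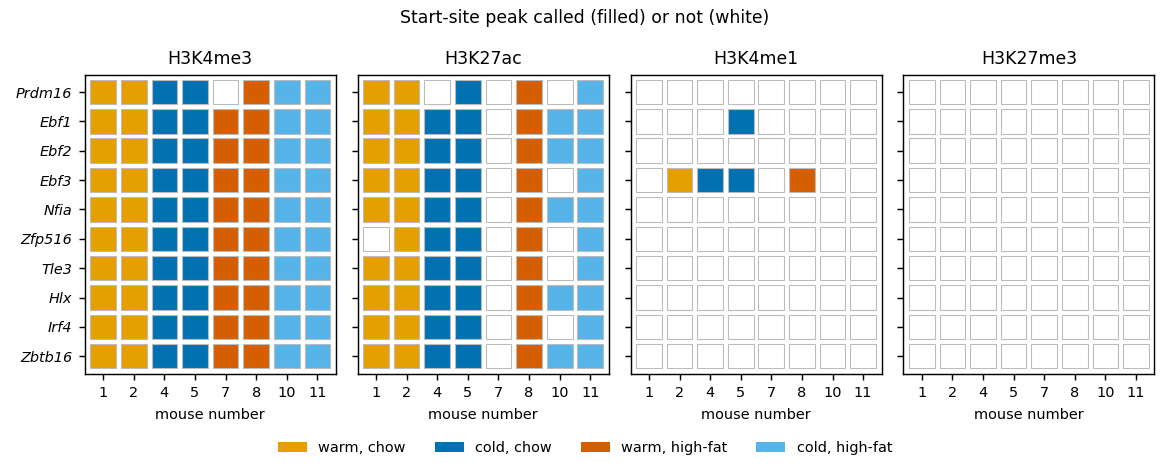
Start-site peaks of the 10 genes (rows) in each of 8 mice (columns) for the 4 marks, filled where a peak overlapped 1000 bp around a start site and coloured by condition. H3K4me3 is filled in all but 1 square, H3K27ac is empty for every gene in mouse 7, and H3K27me3 is empty throughout.

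Several of the missing H3K27ac calls had a peak just outside the window. At Prdm16 the nearest H3K27ac peak lay 1302 bp from the start site in mouse 4 and 1044 bp in mouse 10. At Ebf3 in mouse 10 it lay 1458 bp away, at Zfp516 in mouse 1 it lay 1024 bp away, and at Ebf1 in mouse 7 it lay 1375 bp away. In contrast, Tle3 had no H3K27ac peak within 222595 bp in mouse 10 or within 338710 bp in mouse 7.

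The breadth of H3K4me3, the summed length of a mouse's start-site peaks, was large for most of the group. This sum can add separate peaks and start sites. Prdm16 had 2 to 3 pieces per mouse, the longest 3713 of 6742 bp in mouse 1. Zfp516 has start sites 3753 bp apart, and Ebf3 has one 46907 bp from its first. Percentiles given here are those of the sum. The median over the 7 mice other than mouse 7 was at or above the 90th percentile of genes with a peak for 8 of 10 genes, and the middle of the 10 medians was 5392.5 bp. For comparison, the relatives of these genes (Ebf4, 3 other NFI genes, 3 other Tle genes, Mecom, Irf3 and Irf8) reached that percentile in 4 of 10 and had a median of 2361 bp. Partner and regulator genes, such as Pparg, Cebpa and Ppargc1a, reached it in 7 of 14, with a median of 2994 bp. No test was made between the lists.

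Prdm16 (chr4:154316125-154636873, minus strand) had a start-site H3K4me3 breadth of 6742 and 6417 bp in the warm NCD mice, 4341 and 5828 bp in the cold NCD mice, 6248 bp in the single warm HFD mouse with a peak, and 3679 and 7421 bp in the cold HFD mice. The cold and warm mice overlapped, as did the diets. H3K27ac at the same window spanned 5223, 6985, 6269, 7353 and 7940 bp in mice 1, 2, 5, 8 and 11, at or above the 98.6 percentile of each list. Where it was called, acetylation was thus about as broad as H3K4me3, with a median ratio of the 2 breadths of 1.08.

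The EBF genes encode related DNA-binding factors, of which EBF2 marks brown preadipocytes, and Ebf2 and Ebf3 had the broadest start sites of the group. Ebf2 (chr14:67233292-67430918) had H3K4me3 over 7581 and 7908 bp in warm NCD, 7549 and 7545 bp in cold NCD, 4726 and 7514 bp in warm HFD, and 7154 and 8940 bp in cold HFD. It was the broadest of the 10 by median (7549 bp without mouse 7) and the only one whose breadth stayed at or above the 99.7 percentile in every mouse, mouse 7 included. Its H3K27ac breadth was 6050 to 8005 bp in 7 mice, with a median of 7455 bp. Ebf3 (chr7:137193673-137314445, minus strand) had H3K4me3 over 7433, 7665, 7129, 7717 and 7800 bp in mice 1, 2, 8, 5 and 11, but 3099 bp in mouse 4, 4623 bp in mouse 10 and 1089 bp in mouse 7. Ebf1 (chr11:44617317-45008091) varied more, from 563 bp in mouse 7 and 1738 bp in mouse 4 to 7238 bp in mouse 11, with a median of 5175 bp without mouse 7. In mouse 4, Ebf1 combined that short H3K4me3 stretch with 6757 bp of H3K27ac, a ratio of 3.89.

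Nfia (chr4:97772734-98118874), a nuclear factor I gene, shares its start region with E130114P18Rik, so marks there cannot be given to one gene alone. H3K4me3 spanned 5610 and 6181 bp in the warm NCD mice and 2443 and 3371 bp in the cold NCD mice. On HFD it spanned 1334 and 5709 bp in the warm mice and 4316 and 7437 bp in the cold mice. The warm and cold mice did not overlap on NCD and overlapped on HFD. On NCD they also did not overlap in Prdm16, Ebf2, Zfp516, Tle3, Hlx and Irf4, but did in Ebf1, Ebf3 and Zbtb16. The share of all genes without overlap was not counted. The median breadth over all genes with a start-site peak split the same way, at 1639 and 1643 bp in the warm NCD mice and 1275 and 1401 bp in the cold. By percentile of each list, Nfia kept this order on NCD. Ebf2, Tle3 and Irf4 had the reverse order, with higher percentiles in the cold mice, and Prdm16, Zfp516 and Hlx overlapped. H3K27ac at Nfia ranged from 2478 bp in mouse 10 to 13311 bp in mouse 8, the longest start-site H3K27ac of the 10 genes.

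Zfp516 (chr18:82910663-83005314) stood out by the gap between its marks. H3K4me3 was broad, at 6070 and 6123 bp in warm NCD, 5561 and 5350 bp in cold NCD, 1556 and 5909 bp in warm HFD, and 5501 and 7157 bp in cold HFD. H3K27ac was 0, 2143, 1349, 221, 0, 209, 0 and 1934 bp in mice 1, 2, 4, 5, 7, 8, 10 and 11. The H3K27ac breadth was 0.0354 to 0.350 times that of H3K4me3 in the 5 mice with both, a median of 0.243. That ratio fell at the 12.7 percentile of genes with both marks, the lowest of the 10.

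**Figure D2:**
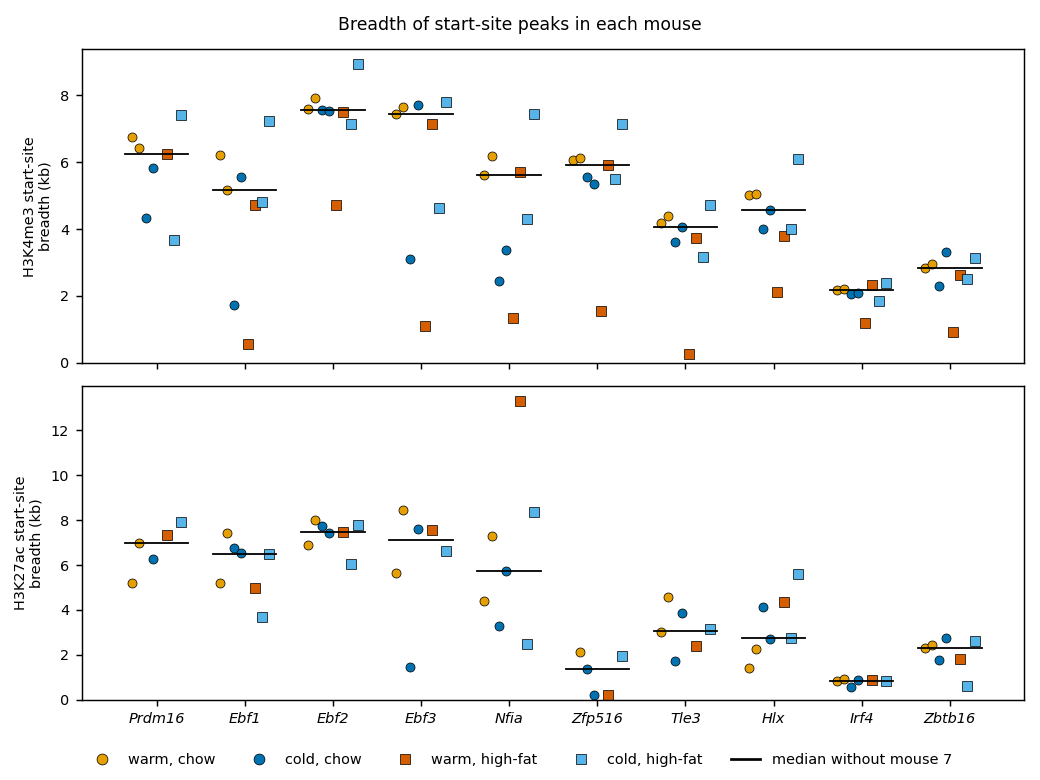
Start-site breadth in kb of H3K4me3 (top) and H3K27ac (bottom) for each gene, 1 point per mouse with a peak, coloured and shaped by condition, with the median of the mice other than mouse 7 as a line. Mouse 7 (lower warm HFD square in the top panel) is the lowest H3K4me3 point of each gene that has one, and Zfp516 is high in the top panel and low in the bottom one.

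The remaining start sites were narrower. Tle3 (chr9:61372366-61418497) had H3K4me3 over 3155 to 4722 bp in the 7 mice other than mouse 7, which had 272 bp, and H3K27ac over 1721 to 4567 bp in 6 mice. Hlx (chr1:184727140-184732619, minus strand), a gene of only 5.5 kb, had 3803 to 6085 bp of H3K4me3 in those 7 mice, and 2123 bp in mouse 7. Its H3K27ac spanned 1401 and 2248 bp in the warm NCD mice, 4131 and 2712 bp in the cold NCD mice, 4355 bp in mouse 8, and 2750 and 5585 bp in the cold HFD mice. Zbtb16 (chr9:48654297-48836222, minus strand) had 2313 to 3321 bp of H3K4me3 in the 7 mice, at a median percentile of 89.6.

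Irf4 (chr13:30749226-30766976) had the narrowest marks of the group. H3K4me3 spanned 2168 and 2210 bp in warm NCD, 2069 and 2085 bp in cold NCD, 1201 and 2332 bp in warm HFD, and 1854 and 2376 bp in cold HFD, as 1 peak in every mouse. H3K27ac spanned 584 to 944 bp in 6 mice, a median percentile of 41.2, and was absent in mice 7 and 10. The ratio of the 2 breadths was 0.380 at the median.

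**Figure D3:**
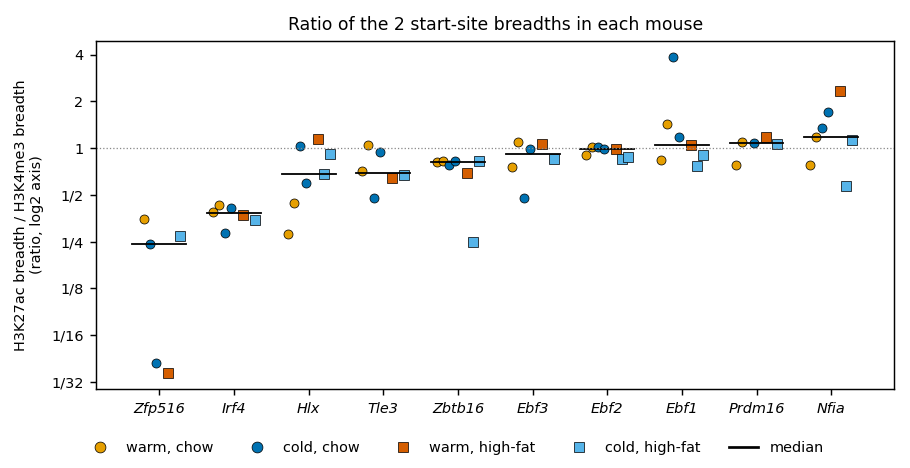
Ratio of H3K27ac to H3K4me3 start-site breadth (log2 axis) in each mouse with both marks, genes ordered by their median (line). Zfp516 and Irf4 sit lowest, with medians of 0.243 and 0.380, and Nfia highest, at 1.18.

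The first comparison asked whether start-site breadth differed with temperature or diet. No gene of the 10 passed in any comparison at a Benjamini-Hochberg adjusted p under 0.05 over all genes (limma on log2 breadth, each list centred on its own median). For H3K4me3, 9 of the 10 had a peak in all 8 mice. Their cold minus warm log2 differences ran from -0.06 to 0.83, with 8 above 0, a median of 0.22 and a lowest adjusted p of 0.499. Over 9499 genes the median was -0.01 and 0 were called (0%), with 993 at an unadjusted p under 0.05, of which 0 were among the 9. For diet, HFD minus NCD ran from -0.90 to 0.08 with 8 of 9 below 0, a median of -0.26 and a lowest adjusted p of 0.340, beside a median of -0.00359 and 1 called gene of all (0.0105%). The largest difference of each, 0.83 and -0.90, was that of Tle3. Both lopsided splits went with mouse 7, a warm HFD mouse. Without it, all 10 genes could be fitted, 6 of 10 temperature differences were above 0 with a median of 0.07, and 6 of 10 diet differences were below 0 with a median of -0.02. Tle3 was then at 0.09 and -0.14. Of 11767 genes then tested, 3 (0.0255%) were called for temperature and 110 (0.935%) for diet, and 0 of the 10 for either.

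Nfia came nearest among the 10 once mouse 7 was left out. Its H3K4me3 breadth differed between cold and warm by -0.46 ± 0.18 (log2, SE, adjusted p = 0.296) and between HFD and NCD by 0.51 ± 0.18 (adjusted p = 0.151, limma). The interaction, which is the cold minus warm difference on HFD minus that on NCD, was 1.31 with all mice (adjusted p = 0.856, limma). Without mouse 7, which leaves mouse 8 alone for warm HFD, it was 0.72. No gene of all 9499 passed for the interaction in H3K4me3 (0%), with 427 at an unadjusted p under 0.05, Nfia being the 1 among the 9. When mouse 8 was left out, so that mouse 7 alone stood for the warm HFD mice, 1900 of 9500 genes were called for the interaction (20%), among them 5 of the 9, Tle3, Nfia, Zfp516, Ebf1 and Ebf3. That fit assumes that the lone mouse varies like the mice of the other groups.

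H3K27ac breadth could be fitted for none of the 10 with all 8 mice, because mouse 7 had no start-site peak in any of them, so values are without it. Ebf1, Ebf2, Nfia, Hlx and Zbtb16 had a peak in all 7 remaining mice. Nfia differed between cold and warm by -0.74 ± 0.30 (adjusted p = 0.508) and between HFD and NCD by 0.72 ± 0.30 (adjusted p = 0.842, limma). Hlx was broader on HFD by 0.84 ± 0.33, a difference that did not pass (adjusted p = 0.753, limma). Its cold minus warm difference was 0.60 ± 0.33 and did not pass either (adjusted p = 0.686, limma). The other 3 lay between -0.15 and 0.15 for temperature and between -0.45 and 0.11 for diet. Of 3735 genes, 3 were called for temperature (0.0803%, 317 at an unadjusted p under 0.05), 0 for diet (0%, 214 at an unadjusted p under 0.05) and 0 for the interaction (0%, 106 unadjusted). At an unadjusted p under 0.05, 1 of the 5 stood for temperature, 2 for diet and 0 for the interaction.

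Presence of a start-site peak did not separate the groups for any of the 10. The criterion was a peak in every mouse of a group of 4 and in no mouse of the opposite group. That gives the smallest p of Fisher's exact test (two-sided, 0.0286). Such a p can pass the adjustment over all varying genes only if very many genes reach it, and no gene of any mark passed. For H3K4me3, 9 of the 10 genes had a peak in all 8 mice and so could not vary. Of 4733 genes whose H3K4me3 presence varied, 6 did so for temperature (0.127%) and 26 for diet (0.549%). For H3K27ac, 13 of 10066 did so for temperature (0.129%) and 11 for diet (0.109%). Ebf3, Tle3 and Irf4 came nearest, with H3K27ac in every NCD mouse and in only 2 HFD mice (Fisher's exact p = 0.429). The 2 HFD mice without it were mice 7 and 10, which had the shortest H3K27ac lists.

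Most peaks of these genes were not at start sites but within introns. Of 1209 H3K27ac peaks over the 10 loci in all mice, 978 (80.9%) were intronic and 119 (9.84%) at start sites, and of 802 H3K4me1 peaks 750 (93.5%) were intronic. Of 359 H3K4me3 peaks, 137 (38.2%) were intronic and 123 (34.3%) at start sites. Peaks of the 8 mice were joined into 221 intronic H3K27ac regions, of 19651 in all protein-coding genes. Intronic here means a midpoint inside a gene and outside exons, over 1000 bp from every start site. Of the 221, 93 were found in 1 mouse (42.1%, against 43.3% of all regions), 69 in 4 or more (31.2% against 29.2%) and 27 in 7 or 8 mice (12.2% against 7.94%).

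The regions were spread unevenly. Nfia held 69, Ebf1 49, Prdm16 36, Ebf2 32, Zbtb16 18 and Ebf3 13, Zfp516 and Tle3 had 2 each, and Hlx and Irf4 had 0. Hlx did have 3 intronic H3K27ac peaks, in 2 mice, when peaks were classed singly, but no intronic region after joining. Classed singly, Tle3 had 14 intronic peaks in 6 mice and Zfp516 had 6 in 3 mice, and their regions hold only part of these. Per length, Nfia had 19.9 regions per 100 kb and Ebf2 16.2, and the other 4 genes of that first group had 9.89 to 12.5. All 6 were at or above the 89.9 percentile of 7760 genes of at least 15 kb with H3K4me3 in 7 or more mice. Zfp516 had 2.11 per 100 kb, at the 63.0 percentile, and Tle3 had 4.34, at the 75.0 percentile. The median of the 7760 genes was 0. H3K4me1 overlapped 67 of the 69 regions with a peak in 4 or more mice (97.1%), against 76.4% of all such regions.

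**Figure D4:**
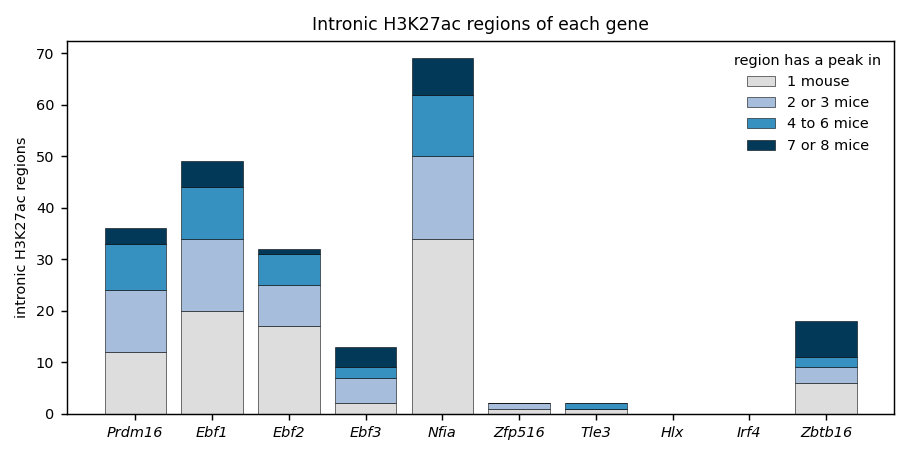
Number of intronic H3K27ac regions of each gene, divided by how many of the 8 mice had a peak in the region. Nfia has the most, 69, and Zbtb16 the largest share in 7 or 8 mice, 7 of 18.

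Zbtb16 held the intronic region with the highest median −log10 q of the group. This region of 14503 bp at chr9:48727113-48741615, about 99.2 kb from the first start site, had a peak in all 8 mice, with a median of 56.7 and fold enrichments of 6.04 to 35.0 over the local background. Neighbouring regions at chr9:48742718-48750526 and chr9:48706023-48709278 were also present in all 8 mice. In mouse 7, where the start site of Zbtb16 had no H3K27ac, 4 of its 18 intronic regions still had a peak.

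Nfia had 4 intronic regions with a peak in all 8 mice. The one with the highest median −log10 q, 29.9, lay near the 3′ end of the gene at chr4:98100420-98110366, 326.7 kb from the first start site, and spanned 9947 bp. The next were chr4:97812550-97822677, 36.6 kb from the start site, and chr4:97905407-97913051, 133.5 kb from it.

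In Prdm16 the region found in all 8 mice was chr4:154579869-154588414, 53.1 kb into the gene, with fold enrichments of 5.56 to 25.3. It held the only H3K27ac peak of mouse 7 over the Prdm16 locus. Regions at 108.9 kb (chr4:154525630-154534021) and 62.1 kb (chr4:154573802-154576143) had a peak in all mice but mouse 7.

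**Figure D5:**
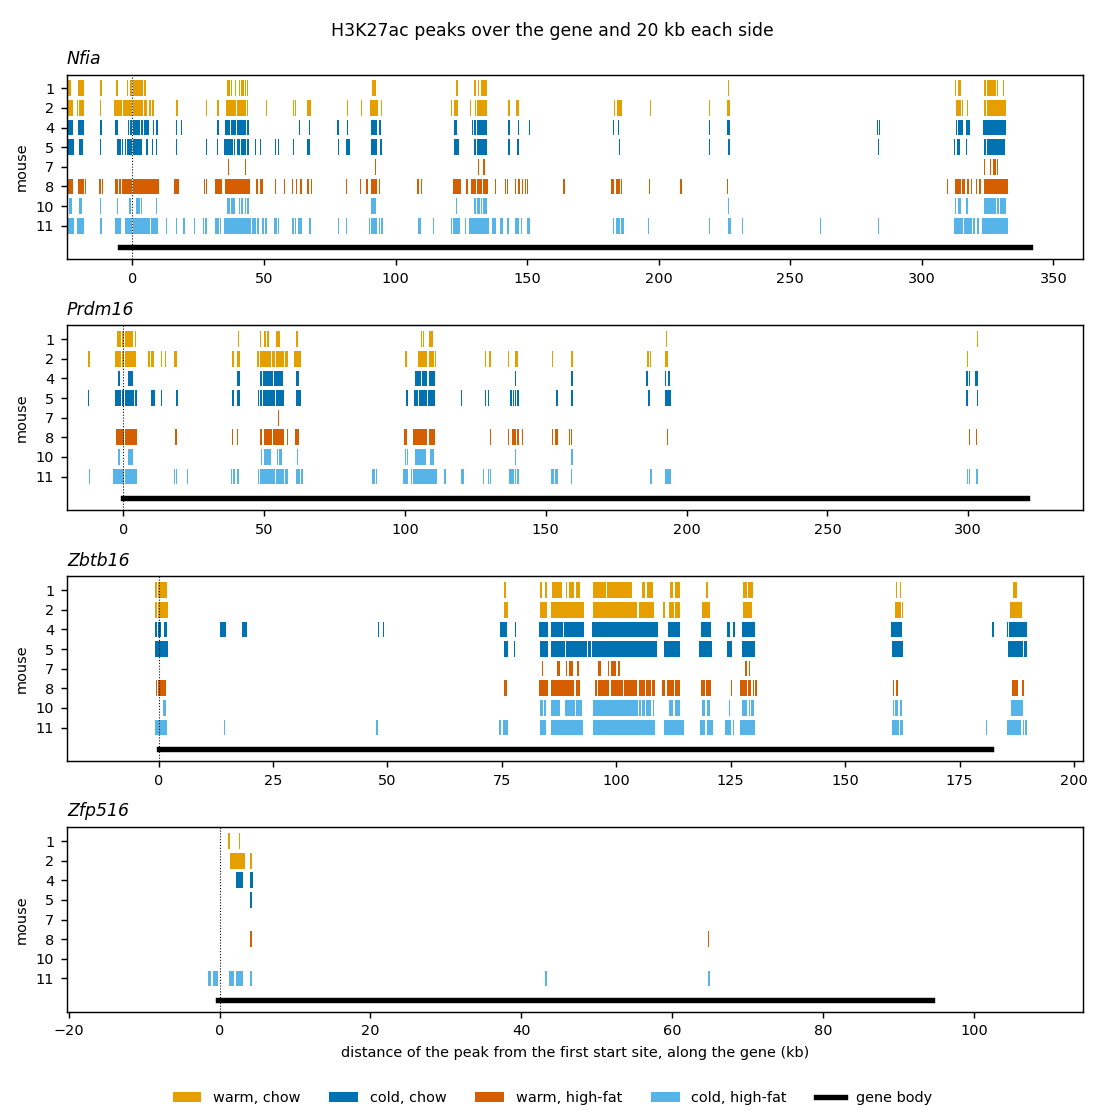
H3K27ac peaks in each mouse (rows, coloured by condition) over Nfia, Prdm16, Zbtb16 and Zfp516, by distance in kb from the first start site along the gene, with the gene body as a black bar and peaks drawn to scale down to a minimum visible width. Blocks of intronic peaks recur at the same distances across mice in Nfia, Prdm16 and Zbtb16, while Zfp516 has 2 intronic regions, found in 1 and 2 mice.

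The EBF genes had regions of the same kind. In Ebf1, chr11:44656987-44659784 (40.6 kb) and chr11:44766876-44770953 (151.8 kb) were present in all 8 mice, and chr11:44682460-44686967 in 7. The Ebf3 region chr7:137221100-137224814, 91.8 kb from the first start site, was present in all 8 mice, and chr7:137276145-137279485 and chr7:137296780-137302006 in 7. Ebf2 had none in 8 mice and 1 in 7, chr14:67414348-67418907, 182.6 kb into the gene.

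In Tle3 and Zfp516, both shorter than the EBF genes, regions were fewer and were found in fewer mice. The most frequent Tle3 region, chr9:61376220-61377044, was found in mice 2, 4, 8 and 11, with fold enrichments of 2.58 to 5.11. The most frequent in Zfp516, chr18:82975564-82975832, was found in mice 8 and 11 and spanned 269 bp.

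The mice also differed in how many of the 221 regions had a peak. Warm NCD mice 1 and 2 had 36 and 90, cold NCD mice 4 and 5 had 96 and 95, warm HFD mice 7 and 8 had 12 and 120, and cold HFD mice 10 and 11 had 39 and 156. The groups overlapped for temperature and for diet, and the 3 lowest were the 3 mice with the shortest H3K27ac lists. No region of the 10 genes had an H3K27ac peak in every mouse at a given temperature or diet but in no mouse of its counterpart. Of 19132 regions in all genes whose presence varied, 71 did so for temperature (0.371%), 70 of them in the cold mice, and 17 for diet (0.0889%).

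For H3K4me1, 2 intronic regions of Ebf3 had a peak in all 4 NCD mice and in none of the HFD mice. They were chr7:137222090-137222760 and chr7:137277513-137279622, 92 and 35.9 kb from the first start site. In the first, peaks of mice 1, 2, 4 and 5 covered 269, 630, 529 and 631 bp with fold enrichments of 6.40, 8.34, 6.26 and 7.31. In the second they covered 326, 1674, 943 and 1093 bp. H3K27ac did not follow this split, with a peak in all 8 mice over the first region and in 7 over the second. Of 27103 varying H3K4me1 regions, 28 split this way by diet (0.103%), all with the peak on NCD, and 0 by temperature (0%). Mice 7 and 10, both on HFD, had 12 and 18 H3K4me1 peaks in their whole lists, so the split rests on mice 8 and 11, whose lists held 17597 and 7774. Mouse 1, on NCD, had 592 H3K4me1 peaks, and its peak in the second region had a −log10 q of 1.89. Neither region was counted when only peaks with a −log10 q of at least 5 were used, or when peaks had to cover at least 50% of the region. No single region can pass an adjustment in this design.

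H3K27me3 was nearly absent over the 10 loci, with 10 peaks in all, 8 of mouse 5 and 2 of mouse 11, the 2 mice with the longest H3K27me3 lists. Over Hlx, mouse 5 had 6 peaks and mouse 11 had 1, all within the downstream flank between 11265 and 16122 bp past the start site, with fold enrichments of 4.90 to 6.61. Over Prdm16, the 3 peaks lay at the start site of the neighbouring gene Arhgef16 and not in Prdm16. Both mice were cold, and the other 2 cold mice had no H3K27me3 peak in any of the 10 loci. The lists of mice 5 and 11 held 6428 and 1392 peaks. Those of the other cold mice, 4 and 10, held 309 and 20, and those of the warm mice 21 to 165. Absence in these short lists carries little weight.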

How the data were processed

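The 8 mice of the study each gave 4 ChIP samples and an input, and the 8 inputs entered only through the lists called against them. According to the study's methods and the submitters' processing notes, the authors trimmed reads with cutadapt and mapped them to GRCm38 using Bowtie2, after which MACS2 called the peaks of each library against its input. The versions, and the threshold for a call, are not stated in the sources read here. The deposited fold enrichment of each peak is a ratio of ChIP signal to local background computed by the authors, and the deposited −log10 p and −log10 q values come from the authors' peak caller, the smallest −log10 q being 1.30. The lists hold no read counts, so depth is unknown. The labels give the tissue as iBAT, read as interscapular in the study's methods and as inguinal in the series text, and the methods can be read as tissue of 2 mice per experiment. Here each list was taken as 1 mouse.

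Peaks were joined to GENCODE M21 basic genes on the same build (0 peaks beyond a chromosome end over 21 chromosomes). Start-site breadth was the summed length of peaks overlapping 1000 bp around any start site. Log2 breadth was fitted with limma 3.58.1 in R 4.3.3 on temperature and diet over genes with a peak in all mice, lists centred on their median, with Benjamini-Hochberg adjustment over all genes. The procedure was tested on simulated data with a temperature difference larger than any reported for the 10 genes. That test does not show how well smaller differences are found. For H3K27ac the fit had been planned over all 8 mice, which leaves none of the 10 genes, so the fit without mouse 7 is reported. Presence was tested with Fisher's exact test. To form intronic regions, peaks of the 8 mice sharing 1 bp or more were merged. Sequences were read from GRCm38.p6 and RefSeq promoters. At most 3 intronic regions per gene were named, by number of mice and then median −log10 q, besides any split by group. Genes, gene lists and tests were chosen with earlier results of these data known.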

Additional observations from a re-analysis of the deposited data

Results flagged for a closer look

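Within each group of 4 mice, a start-site breadth was singled out when its gap to the nearest other mouse, as a share of the group's range on the log2 scale after division by the list's median, passed Dixon's critical value. Of 51 groups examined, 15 were singled out, where chance alone gives about 1 in 20, or 2.55, and 10 of the 15 had mouse 7 at the low end. The groups share mice and are not independent.

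For H3K4me3 among the warm mice, mouse 7 was low in Ebf3 (gap 0.98, 1089 bp), Tle3 (0.96, 272 bp), Zfp516 (0.949, 1556 bp), Zbtb16 (0.935, 909 bp), Nfia (0.903, 1334 bp) and Ebf1 (0.89, 563 bp). Among the HFD mice it was low in Tle3 (0.95), Zfp516 (0.936), Zbtb16 (0.886) and Ebf1 (0.863). Mouse 7 had the shortest H3K4me3 list, and the part of list length was not tested.

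Other mice stood apart in 5 groups. Mouse 4, a cold NCD mouse, was low for H3K4me3 in Ebf1 among the cold mice (0.891, 1738 bp) and for H3K27ac in Ebf3 (0.966, 1470 bp) and Tle3 (0.844, 1721 bp) among the NCD mice. Mouse 5 was low for H3K27ac in Hlx among the cold mice (0.844, 2712 bp) and high for H3K4me3 in Zbtb16 among the NCD mice (0.846, 3321 bp).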

How the results depend on the processing

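The 28 breadth differences of the 10 genes were recomputed under 268 alternatives, of which 0 passed the threshold (lowest adjusted p 0.127, limma), 39 reversed sign and 12 differences reversed under none. For H3K4me3 by temperature (cold minus warm, log2), Ebf1 was 0.43, with a range of -0.23 to 0.94 over mice left out 1 at a time and -0.28 without mice 7 and 10. Ebf3 was 0.18, with -0.31 to 0.52, -0.28 without both mice and -0.056 by the longest peak. Nfia was -0.06, with -0.46 to 0.14, 0.30 by the longest peak and 0.00035 without centring. Zfp516 became -0.0016 by the longest peak, and Irf4 -0.035 with missing breadths set to 100 bp. Tle3 was 0.83, with 0.088 to 1.27, the lowest without mouse 7. For diet (HFD minus NCD), Ebf1 was -0.30, with -0.80 to 0.39 and 0.33 without both mice. Ebf2 was -0.0080, with -0.048 to 0.055, 0.0065 by the longest peak and 0.13 with missing set. Ebf3 was -0.43, with -0.76 to 0.081 and 0.14 without both. Nfia was 0.08, with -0.11 to 0.51 and -0.056 without centring. Zfp516 was -0.26, with -0.43 to 0.039 and 0.020 without both. Irf4 was -0.05, with -0.098 to 0.015, 0.050 by the longest peak and 0.095 with missing set. For H3K27ac by temperature, Ebf1 became -0.11 with a 2000 bp window, Ebf2 -0.093 without both mice, and Nfia 0.69 and Zbtb16 0.63 with missing set. By diet, Ebf2 became -0.22 with missing set and -0.24 without both. Setting missing breadths to 100 bp adds mouse 7 at 100 bp by construction. The cause of the other reversals was not tested.

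Counts among the 10 genes moved when mice were left out 1 at a time: 0 to 5 genes called for the H3K4me3 interaction, 0 to 4 H3K27ac intronic regions split by temperature (4 without mouse 8, 3 without mouse 10) and 0 to 2 by diet (2 without mouse 1, 1 without mouse 7), 0 to 1 H3K4me1 regions by temperature (1 without mouse 10), and 2 to 20 by diet (20 without mouse 1), the last falling to 0 with 50% coverage or a −log10 q of at least 5. Over all genes, calls for H3K4me3 were 0 to 120 by temperature (120 without mice 7 and 10), 0 to 126 by diet (126 without both) and 0 to 1900 for the interaction (1900 without mouse 8). For H3K27ac they were 0 to 8 and 0 to 3. Splits of all genes ranged from 5 to 104 and 22 to 258 for H3K4me3 and 7 to 56 and 5 to 97 for H3K27ac. Splits of all intronic regions ranged from 19 to 508 and 3 to 171 for H3K27ac and 0 to 115 and 6 to 1532 for H3K4me1. Setting by setting, the H3K4me1 diet splits without mouse 1 were 20 of 337 varying regions in the 10 genes and 1532 of 27098 in all. H3K27ac temperature splits were 4 of 188 and 254 of 17521 without mouse 8, and 3 of 209 and 508 of 19109 without mouse 10. H3K27ac diet splits without mouse 1 were 2 of 209 and 171 of 19120. No paired analysis was possible because the groups compared hold different mice with no shared numbers.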

Other observations

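Over the Prdm16 locus, H3K4me1 peaks covered 31753, 14040 and 29832 bp in NCD mice 2, 4 and 5 and 6723 and 2793 bp in HFD mice 8 and 11. Per 1000 bases of the whole H3K4me1 list, that was 2.96, 1.96 and 2.21 on NCD and 1.03 and 1.04 on HFD. The other 3 mice had lists of 12 to 592 peaks, and of these NCD mouse 1 had 1.30, from 1 peak of 246 bp. Over Nfia the same measure in these 5 mice was 1.45, 2.05 and 1.89 on NCD and 3.87 and 1.75 on HFD, so the 2 genes did not share an order. Ebf3 was also higher on NCD, at 1.07, 0.91 and 1.05 against 0.80 and 0.85. Ebf1 went the other way, at 0.63, 1.25 and 1.11 on NCD against 2.07 and 1.32 on HFD, as did Zfp516. The share of all genes with either order was not counted. These values were chosen after they had been seen and were not tested.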
